A study of Mus musculus with 28 samples.

Results

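The 7849 chromatin regions described here are all the peaks in the deposited ATAC-seq table of mouse hair follicle stem cells, compared between animals of 24 months (old) and 6 months (young). The rule took every row of that table and the 8 libraries with a column of counts in it, 4 young and 4 old, of 28 samples in the series. The other 20 samples are RNA-seq and ChIP-seq libraries of the same cell type and ages. All groups are CD34+ α6-integrin+ cells sorted by flow cytometry from trypsin-treated skin, with the strain given as 132-C67BL/6J and no genetic change or treatment named. The ATAC-seq libraries are described as biological replicates, and nothing says whether a library pools animals, so p-values measure the spread between these libraries. The peaks carry the names of 4729 genes, each peak bearing the gene whose start site the authors assigned to it. A peak given as intronic or exonic may lie in another gene than the one it is assigned to.

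ATAC-seq uses a transposase that inserts sequencing adapters where DNA is not covered by nucleosomes, so the number of reads over a region reflects how open it is. Open regions outside start sites are often enhancers, and a gene with many of them is often a regulator of cell identity. Stem cells of the hair follicle occupy its bulge, rest for long periods between hair cycles, and depend on bone morphogenetic protein (BMP) and Wnt signalling and on transcription factors such as those of the NFI family for that state.

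Most listed peaks had fewer counts in the old libraries: 6745 had a lower mean count and 1104 a higher one, so that 85.9% were lower. The table is a selection made by its authors on the same contrast, since no peak has a log2 ratio of the group means closer to 0 than 0.50 or a −log10 p below 2.00. The number of peaks that differ, the size of their differences and their p-values were therefore partly fixed by that selection, and the false discovery rates (FDR) given below only rank the peaks. With edgeR's quasi-likelihood test on the counts as deposited, 3643 peaks were called lower at an FDR under 0.05, which is 46.4% of those tested, and 426 were called higher, which is 5.43%. The groups did not overlap, with every old library below every young one, at 2810 peaks (35.8%), and with every old library above at 383 peaks (4.88%).

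The summed count over the listed peaks was 2456110, 2528298, 2487485 and 2773284 in young replicates 1 to 4, and 1946804, 1854903, 1776585 and 1572998 in old replicates 1 to 4. The most covered library was young replicate 4 and the least covered old replicate 4. Old replicate 4 held the lowest count of the old libraries at 3620 peaks, and young replicate 4 the highest of the young at 3216. The total reads of each library and the counts of peaks outside the selection were not used here, so depth and accessibility cannot be told apart in these sums. Scaling by TMM (trimmed mean of M-values), which centres the listed peaks on no change, moved the median log2 fold change from −0.64 to −0.05, a shift of 0.59. It left 55 peaks called lower (0.701%) and called 1088 higher (13.9%). With it, 2001 peaks that were lower as deposited became higher, and all 55 and all 426 peaks named above were called in the same direction under both scalings. Every direction below is that of the deposited counts unless stated, and a decrease near or under 0.59 on the log2 scale is turned or nearly levelled by TMM scaling. Over the peaks, log counts of libraries of one age correlated with r of 0.831 to 0.894 (12 pairs), and those of different ages with r of 0.701 to 0.807 (16 pairs), as a description of peaks that were selected to differ by age.

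Of the peaks annotated within 1 kb of a start site, those whose span reached the RefSeq window directly before a gene's own start give the clearest view of promoter sequence. The table of such windows holds 32851 promoters of the assembly GRCm38.p6, of which the 250 bases before the start were read. Of the 7849 peaks, 398 touched a window, and 430 windows were touched only by lower peaks and 22 only by higher ones. Windows of lower peaks had a median GC content of 59.8% and 12 CpG pairs, windows of higher peaks 54.2% and 7, and all windows 52.4% and 6. The GC box (GGGCGG on either strand) was present in 52.8% of windows of lower peaks, 18.2% of the 22 windows of higher peaks and 32.7% of all windows. The CCAAT box (CCAAT) was present in 33.5%, 36.4% and 33.8%, and the TATA box (TATAAA) in 9.77%, 9.09% and 12.4%. The AP-1 site (TGANTCA) was present in 9.07%, 9.09% and 6.75%, and the E-box (CACGTG) in 7.91%, 13.6% and 6.02%. The cAMP response element (TGACGTCA) was found in 3.26% of windows of lower peaks, in 0 of those of higher peaks and in 1.55% of all. Windows at active start sites are open in many cells, and no comparison was made with promoters that were open but not listed. These counts describe letters in a window, not bound sites.

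The next 5 windows were chosen after their values were seen. They show 3 promoters with lower peaks and 2 with higher peaks, from 124 and 6 windows whose own gene's peak was called and did not overlap between the ages. Sequence is RefSeq's, from GRCm38.p6, written 5′ to 3′ along the gene's strand up to the base before its start. Capitals mark the GC box and the CCAAT box on either strand, the only searched motifs that occur in them.
St8sia4, chr1:95667595-95667844, minus strand: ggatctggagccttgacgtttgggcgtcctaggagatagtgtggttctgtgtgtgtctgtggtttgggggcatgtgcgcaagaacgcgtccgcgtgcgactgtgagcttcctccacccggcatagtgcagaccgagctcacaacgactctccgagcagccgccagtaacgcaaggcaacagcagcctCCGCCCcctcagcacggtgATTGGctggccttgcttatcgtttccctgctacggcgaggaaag
Prune2, chr19:16955868-16956117, plus strand: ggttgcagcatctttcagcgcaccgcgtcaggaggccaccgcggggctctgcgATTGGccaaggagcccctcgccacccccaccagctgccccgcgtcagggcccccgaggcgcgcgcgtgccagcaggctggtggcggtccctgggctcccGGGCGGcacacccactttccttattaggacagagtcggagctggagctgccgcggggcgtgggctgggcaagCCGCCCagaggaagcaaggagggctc
Pdlim1, chr19:40271617-40271866, minus strand: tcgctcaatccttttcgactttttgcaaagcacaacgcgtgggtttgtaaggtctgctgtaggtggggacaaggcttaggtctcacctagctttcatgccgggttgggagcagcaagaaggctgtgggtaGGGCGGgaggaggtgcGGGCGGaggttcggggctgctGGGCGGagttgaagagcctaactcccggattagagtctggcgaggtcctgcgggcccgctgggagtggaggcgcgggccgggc
Lgals3bp, chr11:118401960-118402209, minus strand: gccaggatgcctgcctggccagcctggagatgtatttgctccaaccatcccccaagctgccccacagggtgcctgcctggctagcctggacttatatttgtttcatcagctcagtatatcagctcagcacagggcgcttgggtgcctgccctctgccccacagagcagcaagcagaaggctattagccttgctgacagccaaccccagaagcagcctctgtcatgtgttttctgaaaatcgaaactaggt
Zc3h12b, chrX:95711428-95711677, plus strand: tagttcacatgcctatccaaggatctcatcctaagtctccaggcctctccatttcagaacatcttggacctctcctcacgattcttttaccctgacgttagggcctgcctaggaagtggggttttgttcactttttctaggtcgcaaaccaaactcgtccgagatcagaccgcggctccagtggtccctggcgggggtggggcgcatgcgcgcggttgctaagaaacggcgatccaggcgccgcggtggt
The windows of St8sia4, Prune2 and Pdlim1 hold 19, 22 and 17 CpG pairs and 1, 2 and 3 GC boxes, and the windows of Lgals3bp and Zc3h12b hold 2 and 17 CpG pairs and no searched motif. The listed peak covers all of the St8sia4, Pdlim1 and Lgals3bp windows, 167 bases of that of Prune2 and 27 bases of that of Zc3h12b.

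St8sia4, which encodes a polysialyltransferase that acts on neural cell adhesion molecules, had peak counts of 260, 220, 323 and 449 in young replicates 1 to 4 and of 94, 147, 126 and 41 in old replicates 1 to 4. All old libraries were below all young ones, with a log2 fold change of −1.62 and an edgeR FDR of 0.0081. At Prune2 the young libraries had 95, 92, 91 and 99 counts and the old ones 12, 30, 44 and 42, a log2 fold change of −1.55. The young values at Prune2 lay within a few counts of each other, while the old ones spread over a wider range. The peak of Pdlim1, a cytoskeletal adaptor of the PDZ and LIM domain family, was among the largest in the table, with 3764, 4475, 3610 and 3448 young and 3029, 2543, 2837 and 2252 old counts. Its log2 fold change was −0.52 as deposited and 0.06 with TMM scaling, so its direction depended on the scaling. Lgals3bp, a secreted galectin-binding glycoprotein, went the other way, with 300, 326, 285 and 267 young and 434, 499, 440 and 616 old counts and a log2 fold change of 0.76. Zc3h12b, a CCCH zinc-finger gene on the X chromosome, had 88, 103, 95 and 115 young and 182, 229, 159 and 168 old counts, a log2 fold change of 0.88.

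Across the genome the listed peaks lay in 3434 intergenic regions, 2756 introns, 1244 promoters and 415 exons, by the authors' annotation. Promoter peaks were lower in old more often than the rest of the table: 1154 of 1244 were lower (92.8%), against 84.5% in introns, 84.1% in exons and 84.9% in intergenic regions. Within promoters the share was 94.3% of the 738 peaks up to 1 kb from the start, 92.7% of the 273 at 1 to 2 kb and 88.0% of the 233 at 2 to 3 kb. With increasing distance from the start the share of lower peaks was 94.3% within 1 kb, 87.9% at 1 to 10 kb, 85.0% at 10 to 100 kb and 81.9% beyond 100 kb. Peaks called lower made up 51.1% of promoter peaks, 44.8% of intronic, 46.7% of exonic and 46.0% of intergenic peaks, beside 46.4% overall. Peaks called higher were 33 in promoters (2.65%), 177 in introns (6.42%), 23 in exons (5.54%) and 193 between genes (5.62%), beside 5.43% over the table. With TMM scaling, of 1244 promoter, 2756 intronic, 415 exonic and 3434 intergenic peaks, 6, 11, 3 and 35 were called lower. Those called higher were 90, 423, 65 and 510. Over the table TMM scaling called 0.701% lower and 13.9% higher.

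The size of the difference varied little by place. Among lower peaks the median log2 fold change was −0.64 in promoters and −0.68 in introns, exons and intergenic regions. Among higher peaks it was 0.65, 0.68, 0.69 and 0.69 in the same order. The 108 peaks in 3′ untranslated regions held 80.6% lower peaks and the 25 in 5′ untranslated regions 88.0%.

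Promoter peaks held a share of the counts over all listed peaks of 18.8% ± 0.817 (SD, n = 4) in the young libraries and 18.2% ± 1.04 in the old. Introns held 33.0% ± 0.475 and 33.5% ± 0.376. None of the 4 shares by place differed between the ages beyond the spread of the libraries, with exact permutation p (two-sided, 70 splits) of 0.400 for promoters, 0.171 for introns and 0.971 for intergenic regions, a value between these last for exons, and adjusted p of 0.686 or more over the 4 tests. The groups overlapped for each place, and the smallest p that 4 against 4 libraries can give is 0.0286. These peaks were selected on the same contrast, so the tests describe only the listed counts. They cannot tell whether the ages differ by place over all open regions. Within the list, a difference in how often peaks were lower by place stood beside shares of counts that were not separable by age.

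Peak width and count also went with direction. All widths are multiples of 50 bp, from 100 to 10350 bp with a median of 450. Of 3308 narrow peaks (400 bp or less) 81.1% were lower, of 2135 middle peaks (450 to 550 bp) 86.7%, and of 2406 wide peaks (over 550 bp) 91.9%. The called share followed width in the same way, from 30.0% of narrow peaks called lower to 40.3% of middle and 74.4% of wide peaks. With TMM scaling that order of called shares was gone, with 19 narrow, 17 middle and 19 wide peaks called lower. Those called higher were 610, 283 and 195, beside 0.701% called lower and 13.9% higher over the table. The fold changes went in the opposite order, with a median among lower peaks of −0.79 in narrow, −0.64 in middle and −0.61 in wide peaks. Narrow peaks had a median count of 115 and wide peaks of 452, so narrow peaks carry more counting error. No listed peak has a −log10 p below 2.00, a limit that peaks with few counts reach more readily at larger changes. The part of this selection in the order of fold changes was not tested. Of the 982 peaks that differed by more than 1 on the log2 scale, 707 were narrow and 105 wide.

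Grouping the peaks by mean count gave nearly the same picture. The share of lower peaks was 81.3% of 2617 peaks with a mean count of 146 or less, 84.6% of the 2619 in the middle and 91.9% of the 2613 above 273. The shares called lower were 32.7%, 33.9% and 72.7%. With TMM scaling 20, 20 and 15 of these peaks were called lower and 477, 401 and 210 higher. Over the table it called 0.701% lower and 13.9% higher. With the counts as deposited, place and width each went with direction on their own. Among narrow peaks 88.6% of 439 promoter peaks and 80.5% of 1497 intergenic peaks were lower. Among wide peaks these were 96.4% of 502 and 90.8% of 1004. Measured from the median change of all listed peaks instead, 47.7% of promoter and 50.8% of intergenic peaks lay below it. The same held for 62.4% of narrow and 38.1% of wide peaks, the reverse of the order by width given above. Wide peaks held 60.3% ± 1.19 of the counts in young libraries and 59.8% ± 0.696 in old ones, with overlapping groups. The exact permutation p was 0.486 (adjusted 0.514 over the 3 widths). As with place, that test describes only peaks selected on the same contrast.

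**Figure D1:**
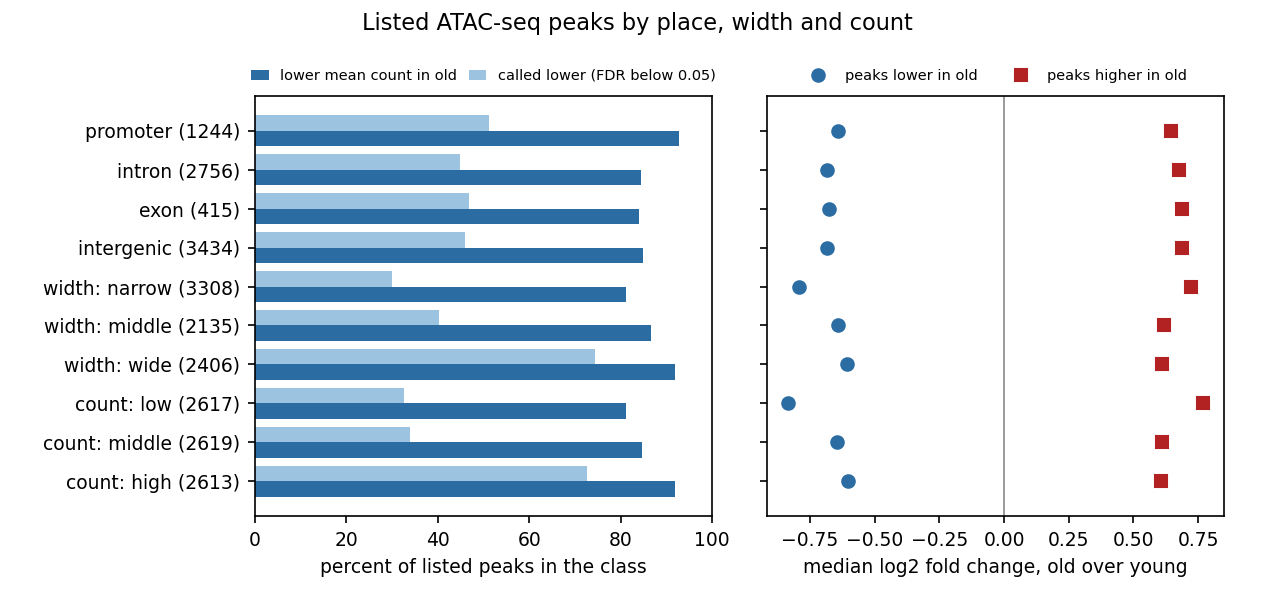
Left, percent of listed ATAC-seq peaks in each class of place, width and mean count that had a lower mean count in old (dark bars) and that edgeR called lower at an FDR under 0.05 (light bars), with the number of peaks in parentheses. Right, median log2 fold change, old over young, of the lower (circles) and higher (squares) peaks of each class. Promoter, wide and high-count peaks show the largest shares of lower peaks, up to 92.8%, 91.9% and 91.9%. Narrow and low-count peaks show the largest median differences, an order that the selection on p may partly set.

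The chromosomes differed in the mix of directions. Chromosome 6 had the smallest share of lower peaks among the autosomes, 281 of 396 (71.0%), followed by chromosome 11 with 253 of 336 (75.3%). Chromosome 19 had the largest, 292 of 311 (93.9%). The X chromosome, with 149 of 174 peaks lower (85.6%), lay at the level of the whole table.

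Among individual promoters, Pank1 had the largest called fall. This gene, which encodes a pantothenate kinase of coenzyme A synthesis, had 273, 213, 306 and 180 young and 133, 53, 46 and 69 old counts, a log2 fold change of −1.69 with an edgeR FDR of 0.0070. AA986860 had 80, 104, 138 and 88 young and 28, 37, 26 and 39 old counts (−1.65), and Uhrf1bp1l had 129, 141, 174 and 261 young and 89, 40, 55 and 47 old counts (−1.61). All old libraries of these promoters were below all young ones. The promoter peak with the largest rise was that of Csmd1, a large transmembrane protein with complement control domains, with 115, 148, 106 and 110 young and 502, 424, 459 and 424 old counts, a log2 fold change of 1.92 and an FDR of 0.00015. Frmd4b rose from 29, 42, 22 and 29 to 53, 84, 125 and 74 counts (1.46), and A330023F24Rik from 170, 182, 166 and 91 to 358, 329, 411 and 411 (1.31). Herc6, an interferon-inducible ubiquitin ligase family member, rose from 30, 9, 46 and 18 to 72, 53, 51 and 56 counts (1.17), which left its highest young and lowest old library only a few counts apart.

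Inside and between genes, not all of the largest changes are named here. The intronic peak of Adgrd1, an adhesion G protein-coupled receptor, fell from 113, 115, 190 and 201 to 28, 4, 51 and 68 counts. Its log2 fold change was −2.03. The intronic peak of Tox2, an HMG-box factor, fell from 104, 132, 110 and 141 to 45, 16, 51 and 12 counts (−1.97). That assigned to the microRNA gene Mir3099 fell from 43, 48, 26 and 32 to 8, 23, 6 and 0 counts. Among exonic peaks, Ankrd42 (−1.77), Cd96 (−1.68), Basp1 (−1.68) and Hpcal1 (−1.61, in an exon outside the gene it is assigned to) had the largest falls. Cd96 encodes a receptor known from T and NK cells, and its counts were 190, 80, 178 and 180 young and 45, 41, 51 and 58 old. In the other direction, an exonic peak of Sult2a3, a sulfotransferase, rose from 351, 286, 371 and 402 to 1097, 1280, 1029 and 1218 counts (1.71). Acly, the ATP citrate lyase of fatty acid synthesis, had an exonic peak that rose from 59, 82, 106 and 59 to 305, 234, 140 and 125 counts (1.39). At Acly, old replicates 1 and 2 lay well above old replicates 3 and 4. The intronic Gm14635 peak on the X chromosome had 11, 20, 4 and 6 young and 45, 36, 39 and 37 old counts (1.92).

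Between genes, the peak with the largest fold change in the table was a 200 bp region at chr3:155599901-155600100, assigned to 9330178D15Rik. It had 72, 42, 63 and 135 young counts and 0, 1, 8 and 3 old counts, with group means of 78.0 ± 40.0 and 3.00 ± 3.56 (SD, n = 4) and an edgeR FDR of 0.00062. The old counts are so few that the size of the fold change depends on small numbers. Of the rises, Gm5916 went from 51, 25, 27 and 9 to 166, 123, 63 and 116 counts (2.06) and Vmn2r12, named for a vomeronasal receptor, from 67, 144, 140 and 114 to 433, 534, 336 and 349 (1.83). Vomeronasal receptor genes and sulfotransferase genes lie in families of near-identical copies, so which copy the reads came from is uncertain.

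The widest peak and the one with the most counts were the same region, 10350 bp at chr8:70706701-70717050 assigned to Gm3336. It held 3595, 6133, 5311 and 3355 young and 6007, 3244, 8847 and 8572 old counts, with overlapping groups, a log2 fold change of 0.54 and an FDR of 0.052. The next highest counts, at Pdlim1, Lgr4, Fbxl18, Dlc1 and Ndufaf6, were all lower in old. Lgr4, a receptor for R-spondins that strengthens Wnt signalling, had 3570, 3542, 3551 and 4438 young and 2789, 3177, 2353 and 2115 old counts. Its log2 fold change was −0.53 as deposited and 0.05 with TMM scaling. Fbxl18 stayed marginally lower under TMM (−0.62 as deposited, −0.03 with TMM), and Dlc1 and Ndufaf6 turned to 0.03 and 0.08. The second widest peak, 5250 bp at Cyr61, a matricellular target of the YAP pathway, had 3431, 3679, 3270 and 1974 young and 2502, 1872, 1632 and 2505 old counts. Young replicate 4 lay within the range of the old libraries there, and TMM scaling turned its −0.54 to 0.05.

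Of the 4729 genes, 3100 had 1 listed peak, 934 had 2, 512 had 3 or 4, 146 had 5 to 7, and 37 had 8 or more. Peaks of genes with several listed peaks were lower more often: 82.4% for genes with 1 peak, 84.6% with 2, 90.2% with 3 or 4, 91.3% with 5 to 7 and 90.7% with 8 or more. The share called lower was 41.3%, 46.4%, 51.0%, 55.1% and 49.3% in the same order, beside 46.4% over the table. Among the 695 genes with 3 or more peaks, all peaks were lower for 526 and all higher for 14. The median gene length was 27.5 kb for genes with 1 peak, 40.7 kb with 2, 68.8 kb with 3 or 4 and 123 kb with 5 to 7. It was 88.2 kb with 8 or more and 33.9 kb for the 16 genes with 10 or more. The part of gene length in the number of peaks was not tested. Over the 4531 genes with a RefSeq length, Spearman's rho between the number of listed peaks and the length was 0.183, as a description across genes.

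The 25 genes with the most listed peaks, 9 to 14 each, held 254 peaks, of which 230 were lower (90.6%). The last 9 of them were taken in alphabetical order from the 14 genes with 9 peaks. Of the 254 peaks, 128 were called lower (50.4%, beside 46.4% over the table) and 14 higher (5.51%, beside 5.43%). The ages did not overlap at 97 lower peaks (38.2%, beside 35.8%) and 14 higher peaks (5.51%, beside 4.88%). TMM scaling left 1 of the 254 peaks called lower and called 23 higher, beside 0.701% lower and 13.9% higher over the table. For 17 of the genes every peak was lower, beside 526 of the 695 genes with 3 or more peaks. For 23 the counts summed over a gene's peaks did not overlap between the ages. Sums were also separate at 1227 of 3100 genes with 1 listed peak, 518 of 934 with 2 and 31 of 37 with 8 or more. As the peaks were selected on this contrast, separate sums do not mark out the 25 genes. The median log2 fold change of the 254 peaks was −0.65, beside −0.64 over the table, so the genes with many peaks did not stand apart in size.

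Nfib, the NFI-family factor known for its part in follicle stem cells, tied for the most with 14 peaks over 361 kb of chromosome 4, of which 13 were lower, 6 of them called. Their summed count was 4976, 4603, 4428 and 4866 in young and 3346, 3367, 3191 and 2853 in old libraries, with every old sum below every young one. A distal peak at chr4:82552151-82552850 had 621, 666, 579 and 644 young and 445, 481, 326 and 366 old counts, a log2 fold change of −0.63. A peak in the 3′ untranslated region had 83, 70, 73 and 69 young and 38, 29, 37 and 50 old counts (−0.94). The exception at Nfib was the distal peak at chr4:82282551-82282950, with 173, 226, 165 and 207 young and 240, 292, 227 and 333 old counts, whose log2 fold change of 0.50 had an FDR of 0.074.

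Tfap2c, encoding the epidermal factor AP-2 gamma, had the largest median decrease of the 25 genes, −0.91 over 11 peaks, 8 of them called. Its summed count was 5276, 5585, 6122 and 6683 young and 3847, 3509, 3543 and 4176 old. The 2700 bp promoter peak at chr2:172548951-172551650 held 2322, 3048, 2885 and 2999 young and 1936, 1805, 1800 and 2125 old counts, a log2 fold change of −0.55 that TMM scaling turned to 0.05. The smaller promoter peak 1 to 2 kb from the start had 490, 447, 478 and 461 young and 292, 163, 301 and 306 old counts (−0.82, and −0.22 with TMM). The larger of the Tfap2c decreases thus lay at its narrower peaks, and the broad promoter peak changed less. Narrow listed peaks had the larger decreases over the whole table too, which the selection on p may partly set. The neighbouring gene on chromosome 2, Bmp7, encodes a secreted BMP ligand and had 11 lower peaks with a median of −0.67. Its sums were 4329, 4124, 4444 and 5394 young and 3177, 2932, 2906 and 2990 old. The Bmp7 promoter peak had 733, 788, 659 and 833 young and 604, 508, 422 and 583 old counts (−0.51, and 0.09 with TMM).

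Slitrk6, a transmembrane protein with leucine-rich repeats, had 11 lower peaks with a median of −0.85, 7 of them called, spread over 864 kb. Their sum was 4335, 3722, 4592 and 5615 in young and 3107, 2674, 2180 and 2156 in old libraries. The clearest of them, at chr14:110243501-110244050, had 427, 349, 392 and 414 young and 188, 191, 170 and 163 old counts, a log2 fold change of −1.15 with an FDR of 0.0058. At its promoter the ages overlapped, with 549, 358, 634 and 756 young and 467, 323, 298 and 311 old counts (−0.72). Another peak, at chr14:110151301-110151950, had close young counts and more spread old ones, with 586, 597, 599 and 603 young and 430, 340, 279 and 278 old (−0.85).

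The Krüppel-like factors Klf5 and Klf6, transcription factors of epithelia and of early growth responses, had 11 and 10 peaks, all lower. Klf5 summed to 3420, 3481, 3427 and 3937 young and 2544, 2386, 2118 and 2052 old counts. Klf6 summed to 3254, 4659, 4055 and 4003 young and 2527, 2772, 2358 and 2032 old counts, with a median log2 fold change of −0.82. The Klf6 peak with the most counts covered 3350 bp of its 3′ untranslated region, with 1833, 2567, 1854 and 1500 young and 1216, 1499, 1291 and 1188 old counts. Its highest old and lowest young counts were 1 apart, and its log2 fold change was −0.58 as deposited and 0.004 with TMM scaling. The Klf6 peak with the largest fold change, −1.71, had 61, 109, 131 and 56 young and 58, 0, 49 and 2 old counts, and was not called (FDR 0.053). Old replicates 1 and 3 lay near the lower young counts there, and old replicates 2 and 4 at or near 0.

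Tle4, a Groucho-family corepressor, had the most peaks called lower of the 25 genes, 9 of 10, and all 10 were intergenic. Its sums were 3773, 3947, 4302 and 5036 young and 2824, 2909, 2674 and 1903 old. The distal peak of Tle4 at chr19:14993301-14993800 had 238, 177, 234 and 367 young and 132, 149, 83 and 56 old counts, a log2 fold change of −1.27. Sgms1, a sphingomyelin synthase, had 11 peaks in its introns, all lower with a narrow range of −0.72 to −0.52, and sums of 5508, 5876, 5807 and 6301 young and 3996, 4265, 3923 and 3418 old. Prdm1, the transcriptional repressor Blimp1, had 10 lower peaks, 7 of them called, with sums of 4352, 4431, 4240 and 5092 young and 3175, 3185, 2820 and 2391 old. Bcl6, another transcriptional repressor, had 10 lower peaks, 5 called, with a median of −0.65.

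The remaining genes with only lower peaks were 1700061F12Rik (median −0.81), 2310008N11Rik (−0.75), Etl4 (−0.75), Pdgfc (−0.73), Kirrel3 (−0.63), Pde4d (−0.59), Pappa (−0.58) and Noct (−0.57). Pdgfc encodes a platelet-derived growth factor, Pappa a metalloprotease that cleaves insulin-like growth factor binding proteins, and Pde4d a cyclic AMP phosphodiesterase. Trabd2b, 2010111I01Rik, Lrig3 and Maf each had 1 higher peak among lower ones. Trabd2b, a metalloprotease that inactivates Wnt ligands, had a median of −0.67 over 10 peaks with 4 called lower and 1 called higher.

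**Figure D2:**
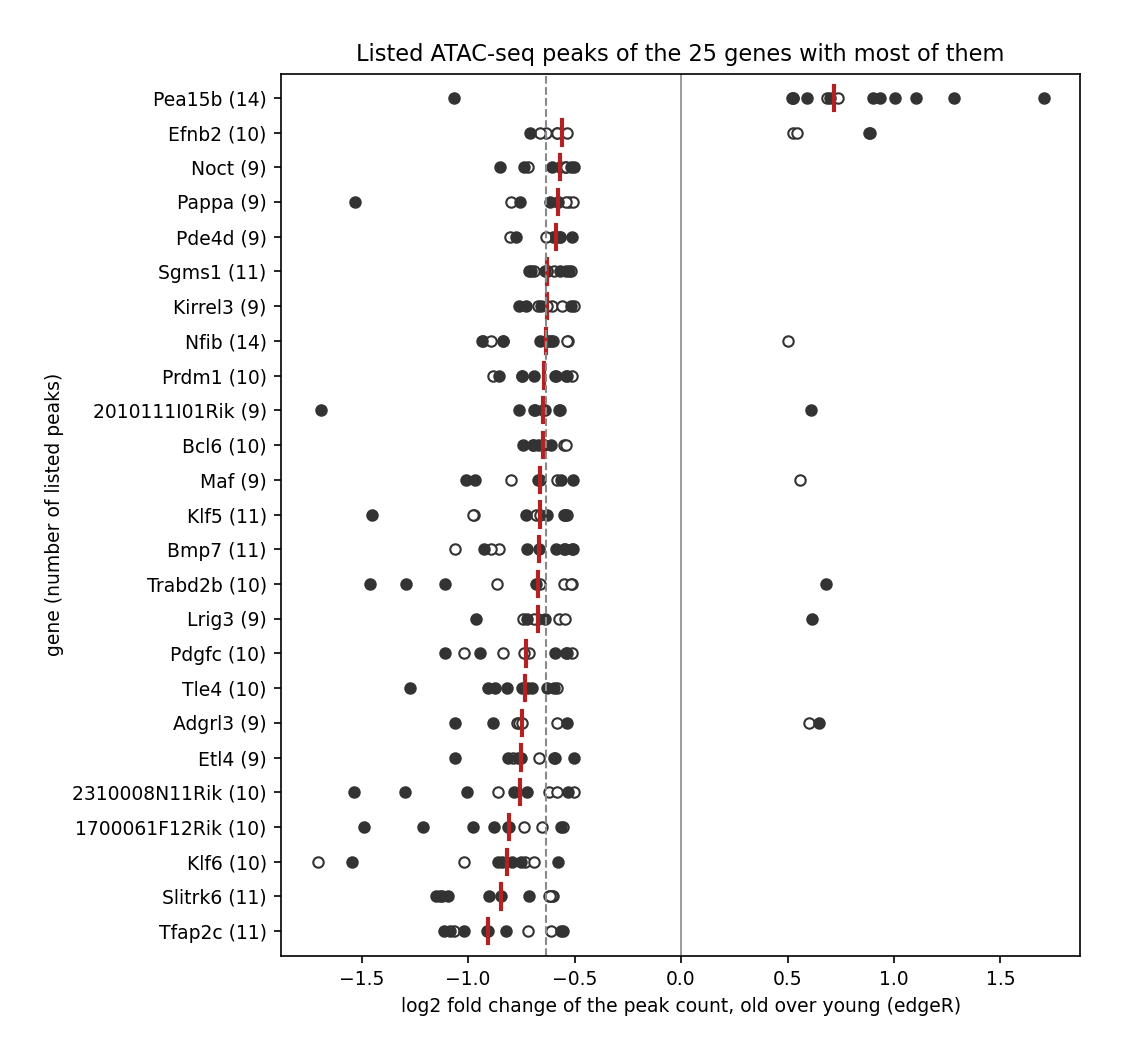
Log2 fold change of the peak count, old over young, at each listed peak of the 25 genes with the most of them, ordered by the median, with the number of peaks in parentheses. Filled points are peaks called by edgeR at an FDR under 0.05, open points are not called, red bars are the median of each gene, and the dashed line marks the median of all listed peaks, −0.64. The medians run from −0.91 at Tfap2c to 0.72 at Pea15b, and the gap around 0 is set by the selection of the table.

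Pea15b was the 1 gene among the 25 whose peaks were mainly higher. It had 14 peaks, all intergenic and spread over 1040 kb of chromosome 5 on the upstream side of a gene of 1.81 kb, and 13 were higher, 9 of them called. Their sums with the lower peak included were 3213, 2812, 2330 and 2651 young and 4534, 5467, 4400 and 3740 old, without overlap. The peak at chr5:77806051-77806900 had 564, 447, 336 and 394 young and 882, 984, 781 and 677 old counts, a log2 fold change of 0.93 with an FDR of 0.0080. The peak of Pea15b with the largest rise, 1.70, had 27, 43, 31 and 125 young and 255, 248, 153 and 81 old counts, with young replicate 4 above old replicate 4. The lower peak, at one end of the region, had 99, 205, 137 and 197 young and 88, 76, 76 and 64 old counts.

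Some genes had listed peaks in both directions. Of the 695 genes with 3 or more peaks, 21 had at least 2 each way. Efnb2, which encodes the ephrin-B2 ligand of Eph receptors, had 6 lower and 4 higher of 10 peaks, and its sums overlapped at 1946, 1652, 1812 and 1829 young and 1525, 1700, 1621 and 1401 old counts. Its lower peak at chr8:7710851-7711200 had 178, 176, 150 and 164 young and 111, 97, 103 and 98 old counts (−0.71). A higher peak assigned to Efnb2 but lying in an intron outside it, 425973 bp from its start, had 42, 24, 54 and 39 young and 74, 80, 58 and 83 old counts (0.89, FDR 0.052).

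Slc6a6, the taurine transporter, had 6 lower and 3 higher peaks within 115 kb, and all 3 higher and 2 lower ones were called. Its peak at 91665101 on chromosome 6 had 1128, 1174, 1373 and 874 young and 508, 613, 553 and 772 old counts (−0.90). Its peak at 91622451 had 146, 145, 49 and 47 young and 166, 227, 204 and 205 old counts (1.05), with young replicates 1 and 2 near the old level. The peak at 91732001 had 292, 394, 391 and 342 young and 516, 440, 689 and 449 old counts (0.56). Of these peaks the one at 91732001 is intronic and the others lie upstream of the gene. Opposite differences thus lay among peaks assigned to one gene, each without overlap of the ages.

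Acvr2a, an activin type II receptor, had 5 lower and 3 higher of 8 intergenic peaks. Its higher peak at chr2:48332901-48333250 had 68, 80, 42 and 55 young and 176, 169, 132 and 143 old counts (1.34), and its peak starting at 48497901 had 316, 475, 471 and 429 young and 292, 306, 266 and 249 old counts (−0.60). Adgrl3 (7 of 9 lower), Rbfox1 (7 of 9) and Cobl (5 of 7) were the other mixed genes with the most peaks.

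Higher peaks also lay side by side along chromosomes. Runs of 6 or more neighbouring listed peaks that were all higher were looked for after the values had been seen. There were 7, with 51 peaks in all. Every peak of a run is higher by definition and from a list selected on this contrast, so higher old sums were built in. How many such runs would arise with 14.1% of listed peaks higher was not tested. Neighbouring listed peaks were a median of 115 kb apart, and 997 lay within 10 kb of the one before. The run on chromosome 7 from Vmn1r89 to Sult2a6 had the largest median log2 fold change, 1.71 over 7 peaks, with sums of 1094, 808, 1122 and 911 young and 3471, 3816, 3027 and 3385 old counts. The run of 6 peaks at Csmd1 and Spag11a on chromosome 8, over 3212 kb, had sums of 741, 591, 403 and 658 young and 2041, 1799, 1910 and 1513 old. At both of these the old sums lay far above the young ones in every library.

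The run of 13 peaks at Pea15b summed to 3114, 2607, 2193 and 2454 young and 4446, 5391, 4324 and 3676 old counts. The run from Agk to Moxd2 on chromosome 6 had 7 peaks, 5 of them called, with 1311, 959, 1141 and 1226 young and 2702, 2706, 1914 and 1655 old counts. That from Zc3h12c to Gm1715 on chromosome 9 had 6 peaks, 5 called, with 1143, 1623, 1090 and 1196 young and 2394, 2026, 2233 and 2406 old counts. Old replicates 1 and 2 were the highest at Agk to Moxd2, but not at Zc3h12c to Gm1715. The 6 peaks of Gm4251 on chromosome 14 summed to 963, 933, 782 and 870 young and 1786, 1774, 1465 and 1168 old counts. The run from Isoc1 to Gm4951 on chromosome 18 summed to 969, 852, 622 and 932 young and 1838, 1817, 1520 and 960 old counts, and there old replicate 4 lay among the young libraries.

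**Figure D3:**
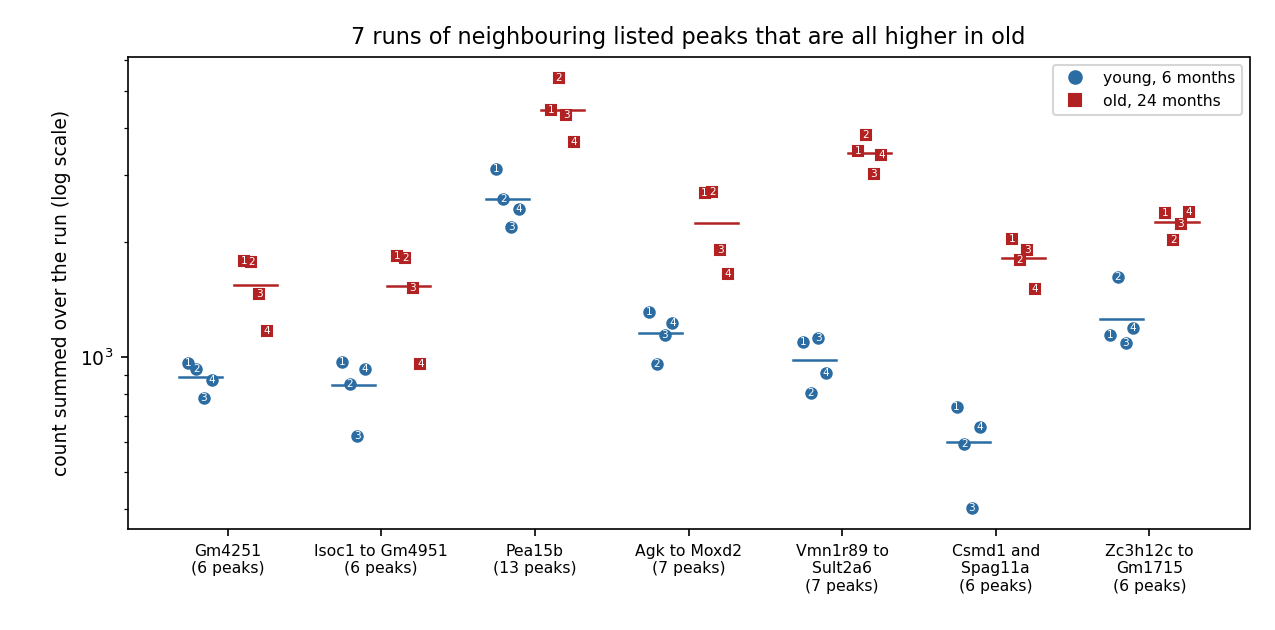
Count summed over each of the 7 runs of neighbouring listed ATAC-seq peaks that are all higher in old, on a log axis, in each young (circles) and old (squares) library. Digits are replicate numbers and lines are group means. The groups are separate at 6 runs, and at Isoc1 to Gm4951 old replicate 4, at 960, lies below young replicate 1, at 969. Runs were picked for peaks that are all higher, so the separation was largely fixed by that choice.

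Some peaks split the libraries of one age. A split was taken, after the values had been seen, as a pair of libraries whose lower count exceeded 2.5 times the higher count of the other pair. Among the old libraries replicates 1 and 2 stood above 3 and 4 at 15 peaks, 1 and 3 above 2 and 4 at 11, and 3 and 4 above 1 and 2 at 6. Among the young libraries replicates 3 and 4 stood above 1 and 2 at 14 peaks and the reverse at 6. The connective tissue growth factor gene Ctgf, a target of the YAP pathway, had a peak in its 3′ untranslated region with 2454, 1712, 479 and 590 young and 878, 1057, 428 and 488 old counts. Replicates 1 and 2 were above 3 and 4 in both ages there, although the numbers are not stated to pair the libraries. AA545190 on chromosome 6 had 88, 308, 61 and 427 young and 28, 68, 689 and 821 old counts. A peak assigned to Klf5, in an intron upstream of that gene, had 71, 117, 87 and 112 young and 57, 57, 17 and 10 old counts, and a peak of Wnt5a, a Wnt ligand, 143, 150, 110 and 180 young and 140, 146, 39 and 31 old counts. At Klf5 and Wnt5a old replicates 1 and 2 lay near the young libraries and old replicates 3 and 4 far below.

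Some of the splits lay on the sex chromosomes. The peaks assigned to G530011O06Rik on X, 5 in number, summed to 3193, 3541, 1862 and 2528 young and 569, 289, 2307 and 2187 old counts. Old replicates 1 and 2 were far below the other libraries there, while old replicates 3 and 4 lay within the young range. Its promoter peak had 1947, 2243, 955 and 1618 young and 136, 37, 1388 and 1323 old counts. The 6 Erdr1 peaks on Y also had lower sums in old replicates 1 and 2, by less than the 2.5 times that defines a split, with 1808, 2002, 1438 and 1364 young and 684, 646, 1350 and 1243 old counts. The 7 Y peaks at Rbmy, Gm21708, Gm21704 and Gm21677 were lower in old replicates 3 and 4, again by less than 2.5 times, with 6693, 6099, 6954 and 6468 young and 5556, 5747, 2718 and 3259 old counts. The other 5 Y peaks summed to 590, 680, 595 and 616 young and 922, 1041, 498 and 1037 old. These loci lie in repeated or near-identical sequence, so the place the reads came from is uncertain, and what sets the pairs of old libraries apart was not tested.

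**Figure D4:**
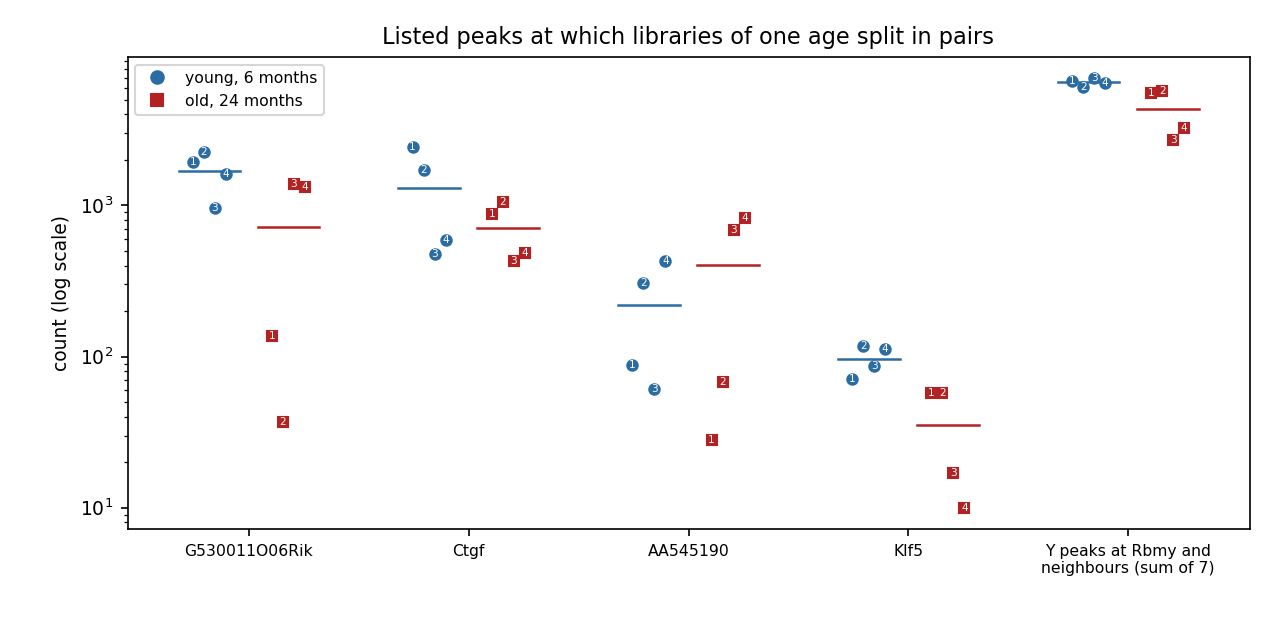
Counts, on a log axis, at the peaks of G530011O06Rik (promoter peak), Ctgf (3′ untranslated region), AA545190 and Klf5 (a peak upstream of the gene), and summed over 7 peaks of the Y chromosome, in each young (circles) and old (squares) library. Digits are replicate numbers and lines are group means. Old replicates 1 and 2 lie below old replicates 3 and 4 at G530011O06Rik (136 and 37 against 1388 and 1323) and above them at the Y peaks.

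Genes of the sorted cells and their signals were followed with lists chosen with earlier results of these data known, so that the counts are descriptions. Of the surface markers used in the sort, Cd34 had 1 listed peak, lower in old, and Itga6 had none. Of 17 genes of follicle stem cell identity, 11 had 37 listed peaks, of which 32 were lower, 16 called lower and 2 called higher, with a median of −0.62 beside −0.64 over the table. These are 43.2% and 5.41% of its peaks, near the 46.4% and 5.43% of all listed peaks. Their summed count was 12060, 12598, 11180 and 12123 young and 9015, 8514, 8494 and 7616 old. Lgr6, a stem cell receptor for R-spondins, had an intronic peak with 107, 86, 96 and 159 young and 243, 245, 183 and 200 old counts (0.96) and another with 141, 171, 103 and 183 young and 114, 68, 62 and 61 old counts (−0.97). Peaks within the same gene thus differed in opposite directions. Runx1, a factor of follicle stem cell activation, had an intronic peak with 143, 170, 236 and 118 young and 137, 108, 59 and 27 old counts (−1.01), at which the ages overlapped.

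In the Wnt list, 22 of 49 genes had 44 peaks, of which 34 were lower, 18 called lower and 3 called higher, with a median of −0.60. The called shares were 40.9% and 6.82%, beside 46.4% and 5.43% over the table. Tcf7l2, a DNA-binding partner of beta-catenin, had a peak with 97, 86, 82 and 118 young and 45, 47, 48 and 15 old counts (−1.30). The promoter of Ctnnb1, which encodes beta-catenin, had 127, 76, 100 and 80 young and 48, 50, 62 and 47 old counts (−0.89). The ligand Wnt5b had a higher mean count in old at all 3 of its peaks, with 131, 95, 139 and 131 young and 251, 280, 181 and 192 old counts at a peak in an intron upstream of the gene (0.87).

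The BMP and TGF-beta list had 64 peaks at 21 of 37 genes, of which 60 were lower, 31 called lower and 2 called higher, with a median of −0.67. The share called lower, 48.4%, was near the 46.4% of all listed peaks. Ltbp1, a binding protein that stores latent TGF-beta in the matrix, had 7 intronic peaks, all lower, the largest difference being from 72, 123, 154 and 141 to 54, 33, 53 and 20 counts (−1.61). The called rises of this list were both at Acvr2a. Of the Notch, Hedgehog and FGF list, 16 of 32 genes had 38 peaks, 34 lower, 15 called lower (39.5%, beside 46.4% over the table) and 1 called higher (median −0.63). Gli3, a transcription factor of Hedgehog signalling, had 65, 92, 57 and 106 young and 33, 36, 31 and 5 old counts (−1.60). Fgfr2, a receptor for fibroblast growth factors, had an intronic peak with 323, 289, 217 and 223 young and 151, 117, 130 and 157 old counts (−0.92).

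Among genes of the basement membrane, 19 of 34 had 39 peaks, 34 lower, 15 called lower (38.5%, beside 46.4% over the table) and 3 called higher (7.69%, beside 5.43%), with a median of −0.59 and with Egflam and Col7a1 both at −1.30. Among genes of integrins, adhesion and mechanosensing, 23 of 52 had 56 peaks, 53 lower, 33 called lower (58.9%, beside 46.4%) and 2 called higher (median −0.67). Itgb6, an integrin that activates TGF-beta, had 158, 148, 175 and 182 young and 109, 56, 79 and 44 old counts (−1.20). Itgb1, the common beta subunit of many matrix receptors, had a peak that rose, with 79, 61, 42 and 69 young and 120, 143, 124 and 166 old counts (1.14), and a larger one that fell, with 1365, 1628, 1313 and 2143 young and 1055, 957, 1132 and 1074 old counts (−0.61). Of the keratinocyte differentiation list, 7 of 22 genes had 10 peaks, 8 lower, 6 called lower (60.0%, beside 46.4%) and 0 called higher (median −0.66). The promoter of Lor, which encodes the cornified envelope protein loricrin, had 1507, 1861, 1838 and 1380 young and 970, 922, 1062 and 829 old counts (−0.80). The AP-1 and stress list had 31 peaks at 12 of 25 genes, 28 lower, 13 called lower (41.9%, beside 46.4%) and 1 called higher (median −0.70). Fosb, an AP-1 subunit, had 645, 969, 823 and 765 young and 475, 234, 505 and 449 old counts at a distal peak (−0.94), and Egr1, an early growth response factor, 109, 115, 61 and 70 young and 142, 144, 206 and 131 old (0.81). With TMM scaling these lists held between 0 and 1 peaks called lower, and more peaks called higher than lower. The whole table did too, with 0.701% called lower and 13.9% higher. Beside that 13.9%, the higher calls were 5 of 37 peaks for stem cell identity (13.5%), 10 of 44 for Wnt (22.7%) and 4 of 64 for BMP and TGF-beta (6.25%). They were 4 of 38 for Notch, Hedgehog and FGF (10.5%), 5 of 39 for the basement membrane (12.8%) and 3 of 56 for integrins and adhesion (5.36%). Keratinocyte differentiation had 2 of 10 (20.0%) and AP-1 and stress 3 of 31 (9.68%).

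Markers of other skin cells had few listed peaks. The list of fibroblast markers had 6 peaks at 5 of 13 genes, 3 lower and 3 higher. Of these, 1 was called lower (16.7%, beside 46.4% over the table) and 3 were called higher (50%, beside 5.43%). Their sums were 1621, 1808, 1272 and 1492 young and 1842, 1426, 1468 and 1295 old counts, which overlapped. The called rises were at Pdgfrb (0.94), Col1a2 (0.84) and Crabp1 (0.56), and another Crabp1 peak was lower (−0.74). Of 16 immune markers only H2-Eb1, an MHC class II gene, had a peak, with 86, 101, 42 and 69 young and 158, 133, 151 and 104 old counts (0.87). The markers of endothelium, muscle and glia had 8 peaks at 6 of 16 genes, 7 lower and 1 called lower (12.5%, beside 46.4% over the table). Their sums were 2272, 1997, 2446 and 2927 young and 1880, 1872, 1776 and 1243 old. The called one was at Tek, a receptor tyrosine kinase of endothelium (−0.62). Melanocyte markers had 3 peaks at 2 of 9 genes, 1 lower and none called, with sums of 365, 329, 371 and 294 young and 422, 285, 523 and 292 old. Sebaceous gland markers had 12 peaks at 3 of 9 genes, all lower and 9 called lower (75.0%, beside 46.4% over the table, and 0 with TMM scaling), with sums of 6082, 6177, 5895 and 6876 young and 4354, 4519, 3898 and 3405 old, which did not overlap. Of these 12, 10 belong to Prdm1, and a peak of Fabp5 had a log2 fold change of −0.58 that TMM scaling turned to 0.02. Fewer cells of a type and less open chromatin per cell cannot be told apart in bulk libraries, and the part of other cells in the listed differences was not tested.

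The histone marks and polymerase measured in the same cell type at both ages were read at the ATAC-seq peaks from the authors' deposited tables. H3K4me3 marks active and poised promoters, H3K27me3 marks regions held by Polycomb, and Pol2 is RNA polymerase II. In these tables the authors' test called 79.1% of 21390 H3K4me3 peaks lower in old and 0.281% higher, 2.60% of 67985 H3K27me3 peaks lower and 2.66% higher, and 52.9% of 6789 Pol2 peaks lower and 0.0442% higher. Of lower ATAC-seq peaks 1095 (16.2%) touched an H3K4me3 peak by at least 1 base, and of higher ones 76 (6.88%). At promoters these were 730 of 1154 (63.3%) and 29 of 90 (32.2%). For H3K27me3 they were 596 (8.84%) and 60 (5.43%), and for Pol2 201 (2.98%) and 18 (1.63%).

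H3K4me3 peaks that touched only lower ATAC-seq peaks were called lower in 964 of 1033 cases (93.3%), and those that touched only higher ones in 45 of 75 (60.0%). At promoters the counts were 820 of 845 (97.0%) and 30 of 44 (68.2%), beside 84.6% of all H3K4me3 promoter peaks called lower and 0.0683% called higher. Elsewhere they were 144 of 188 (76.6%) and 15 of 31 (48.4%), beside 62.3%. The authors' median log2 fold change was −1.42 at H3K4me3 peaks touching lower ATAC-seq peaks, −1.11 at those touching higher ones and −1.37 over all. These peaks also had different median levels, 9.68, 7.82 and 9.15 on the authors' log2 scale, and median widths of 3478, 1506 and 2423 bp. The part of level and width in the shares was not tested.

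Taken over all places, H3K27me3 peaks at listed ATAC-seq peaks were called lower far above the level of their own table, in either direction of the ATAC-seq difference. Of 547 that touched only lower ATAC-seq peaks 135 were called lower (24.7%), and of 61 that touched only higher ones 13 (21.3%), beside 2.60% overall. At promoters 106 of 365 (29.0%) and 3 of 25 (12.0%) were called lower, beside 6.44% of all promoter peaks called lower and 2.93% called higher. Elsewhere they were 29 of 182 (15.9%) and 10 of 36 (27.8%), beside 1.61% of all such peaks called lower and 2.60% called higher. Their median levels over all places, 9.19 and 8.34 against 5.83 over the table, were high. They were also wide, with medians of 7589 and 5521 bp against 1192 bp. The part of level and width in these shares was not tested. Pol2 peaks that touched only lower ATAC-seq peaks were called lower in 77 of 174 cases (44.3%), below the 52.9% of all, and at promoters in 68 of 109 (62.4%) beside 71.7%. Of 11 Pol2 peaks touching only higher ATAC-seq peaks 3 were called lower (27.3%).

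**Figure D5:**
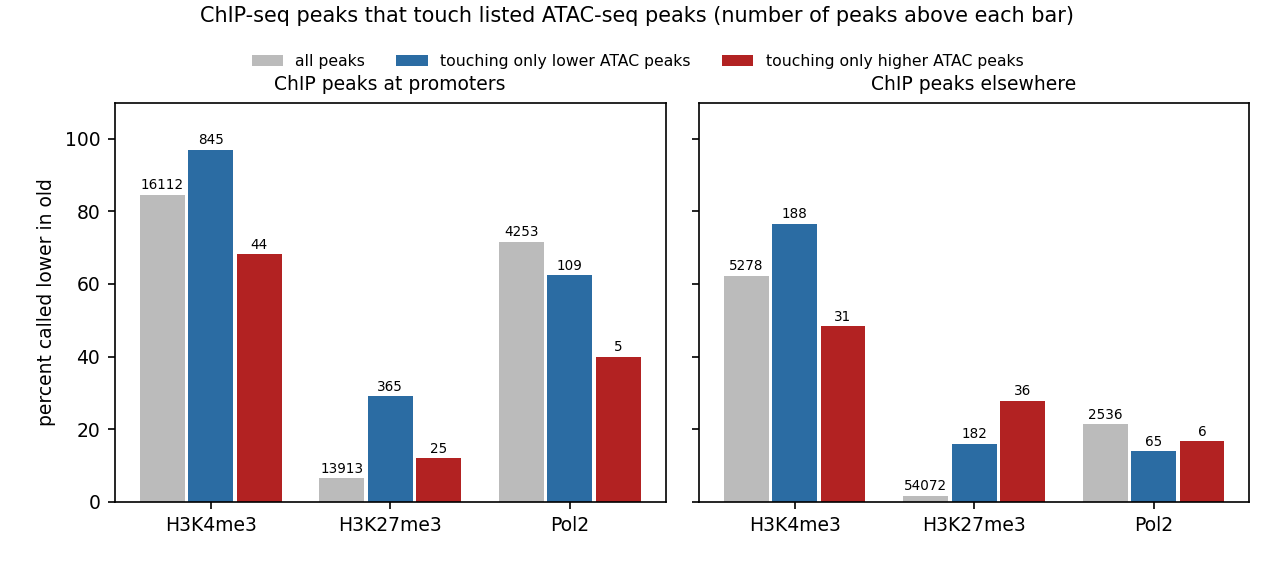
Percent of ChIP-seq peaks called lower in old in the authors' deposited tables, for all peaks (grey) and for those that touch only lower (blue) or only higher (red) listed ATAC-seq peaks, at promoters (left) and elsewhere (right). Numbers above the bars are the peaks in each class. H3K4me3 promoter peaks were called lower in 97.0% of cases at lower ATAC-seq peaks and 68.2% at higher ones, beside 84.6% of all.

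The authors' deposited RNA table, which lists only genes near or past significance, held 158 genes that also carry a listed ATAC-seq peak. Its direction, old against young, rests on its header. Of 124 genes in the authors' deposited table with only lower ATAC-seq peaks, 87 were listed with higher RNA in old and 37 with lower RNA. Of 20 genes with only higher ATAC-seq peaks 3 had higher and 17 lower RNA, and of 14 with peaks both ways 2 had higher and 12 lower RNA. All 597 genes of the authors' deposited table comprised 361 listed higher and 236 lower. RNA and ATAC-seq differences were thus mostly of opposite sign at genes that had both, on the sign that the header gives. Most listed genes were higher in RNA (361 of 597) and most listed peaks lower in ATAC-seq (85.9%), and the part of this imbalance was not tested. The ATAC-seq sign is that of the deposited counts, and TMM scaling turned 2001 lower peaks to higher. Of the 25 genes with the most peaks, the authors' deposited table lists Slitrk6, with a log2 fold change of 1.16 and a DESeq2 adjusted p of 5.6e-07, and Pappa, with 0.69 and 0.00139, both higher in old while all their listed peaks were lower.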

How the data were processed

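The ATAC-seq table holds, for 8 libraries, read counts per peak as deposited by the authors, all whole numbers. The deposited table also gives the authors' log2 ratio of group means and −log10 p, used only to describe the selection. For ATAC-seq the submitters' processing notes name BWA 0.7.12 and the build GRCm38. The sources used here do not name the peak caller, any scaling of counts or the test. The deposited ChIP-seq tables give the authors' log2 levels and fold changes with p-values and FDR from MACS2 2.2.7.1 and DiffBind 2.14.0, and the deposited RNA table gives log2 fold changes and adjusted p-values from STAR 2.5.2b, featureCounts and DESeq2 1.22.2. These tools too are those of the submitters' processing notes.

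The quasi-likelihood test of edgeR 4.0.16 (R 4.3.3) compared the ages over all 7849 peaks with equal library sizes, since the listed peaks were selected by direction and size and their totals are no measure of depth. Peaks at a Benjamini-Hochberg FDR under 0.05 were called. Shares of counts were compared by exact permutation over libraries (scipy 1.17.1). The scripts were tested on simulated data. Alternatives were TMM, listed totals and DESeq2 1.42.0 for scaling, a mean count of at least 100, a replicate block, and leaving out each library. No 2 libraries agreed within sampling noise (lowest chi-square per degree of freedom 10.8).

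The members and gene lists were chosen with earlier results of these data known. Peaks named in the text were drawn from the largest called changes per place with separate groups and the largest called changes per list. Not all of these are named. The others were the 6 with the highest counts, the 6 widest, and peaks of the 25 genes with most peaks and the 6 mixed genes with most. Promoter windows, runs, splits and peaks of the sex chromosomes were chosen after their values were seen.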

Additional observations from a re-analysis of the deposited data

Results flagged for a closer look

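In 13 of 264 groups of 4 libraries (4.92%), 1 library stood apart from the other 3 by Dixon's criterion, which chance gives in about 1 in 20 groups. Old replicate 4 was the one that stood apart in 6 of them and young replicate 4 in 4, the libraries with the lowest and highest totals of listed counts. Old replicate 4 had 0 counts at the Edn1 peak (the others 10 to 11), 15 at the Tcf7l2 peak (45 to 48) and 5 at the Gli3 peak (31 to 36). It also had the lowest sums over the 1700061F12Rik peaks (1255, the others 1707 to 1764), the AP-1 and stress list (5300, the others 6408 to 6550) and the markers of endothelium, muscle and glia (1243, the others 1776 to 1880). Young replicate 4 had 4438 counts at the Lgr4 peak (3542 to 3570) and the highest sums over the peaks of Klf5 (3937, the others 3420 to 3481), Etl4 (4803, the others 3948 to 4059) and Pappa (6966, the others 5402 to 5659). Old replicate 1 had 46 counts at the Dio3 peak (8 to 11) and 114 at the Lgr6 peak (61 to 68). Young replicate 2 had 80 counts at the Cd96 peak (178 to 190). What sets these libraries apart was not tested.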

How the results depend on the processing

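The number of peaks called lower in old, 3643 with deposited counts, depended on the scaling: it was 55 with TMM, 80 with the listed totals and 82 with DESeq2's size factors, while 1088, 1070 and 1082 peaks were then called higher in place of 426. At an unadjusted p under 0.05, TMM gave 249 lower and 1104 higher peaks. DESeq2 with equal sizes called 4595 lower. With a replicate block the counts were 755 lower and 91 higher, but the replicate numbers are not stated to pair the libraries. Deviations of same-numbered libraries from their age means correlated at −0.027, −0.109, 0.035 and −0.186. Over peaks selected on the age contrast these values cannot settle whether libraries were paired. Leaving out 1 library gave 1409 to 3197 lower calls (1846 without young replicate 3, 2099 without young replicate 4, 1409 without old replicate 3, 1867 without old replicate 4) and 141 to 373 higher calls (265 without young replicate 2, 181 without young replicate 3, 254, 246 and 141 without old replicates 1, 2 and 3). In every such fit 895 of the 3643 lower and 101 of the 426 higher peaks were called.

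Shares of counts crossed 0 for intergenic peaks (old minus young −0.0251 percentage points with a mean count of at least 100, and −0.282 to 0.270 leaving out 1 library), exonic peaks (−0.030 to 0.084) and peaks of middle width (−0.014 to 0.351). Of 81 named peaks, 26 kept direction and call in every alternative. TMM and DESeq2's size factors turned Pdlim1 (0.0585 and 0.0489), Lgr4 (0.0532 and 0.0421), Dlc1 (0.0301 and 0.0204), Ndufaf6 (0.0849 and 0.0746, and 0.0143 with listed totals), Cyr61 (0.0494 and 0.0399), Tfap2c (0.0521 and 0.0428) and Fabp5 (0.0174 and 0.00718) to higher, and TMM turned Klf6 (0.00391). At a ChIP-seq FDR of 0.01, called-lower shares at lower ATAC-seq peaks were 88.1% for H3K4me3, 15.5% for H3K27me3 and 18.4% for Pol2 (backgrounds 72.6%, 1.37% and 32.3%), and 45.3% for H3K4me3 at higher ATAC-seq peaks. With the ATAC-seq peak at least 50% covered, the H3K4me3 share was 95.3%. Narrow peaks have few counts, which limits the precision of their fold changes.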
